A study of Mus musculus with 15 samples.

Results

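The genes of the major histocompatibility complex (MHC) class I and class II pathways were examined in mammary tumours of MMTV-PyMT mice. They were every gene whose name on the arrays begins with H2-, the mouse MHC prefix, together with Cd74, Ciita, B2m, Tap1, Tap2, Tapbp, Psmb8, Psmb9 and Nlrc5. This rule, which used no measured value, found 51 genes carried by 86 of 56605 distinct probes. By class they were 38 class I genes, 12 class II genes and H2-Ke6, a steroid dehydrogenase gene (Hsd17b8) that carries the prefix only for its place in the complex. Of the 51, 41 genes (29 class I, 11 class II and H2-Ke6) had a probe well above background on at least 7 of the 15 arrays and were measured, among 22342 genes measured in all. The 10 genes that did not pass were H2-M1, H2-M5, H2-M9, H2-M10.1 to H2-M10.6 and H2-Ea-ps, none of which had a probe well above background on more than 1 of 15 arrays. H2-Ea-ps, the class II alpha chain gene that is defective in the haplotype of C57BL/6 mice, was above background on 0 arrays of either background.

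Whole tumours were profiled, 8 from MMTV-PyMT mice of the B6 background (the usual short name of C57BL/6) and 7 from MMTV-PyMT mice of the Wsh background, all 20 weeks old and kept free of specific pathogens. Every mouse carried the polyoma middle T oncogene under the mouse mammary tumour virus promoter, which is active in mammary epithelium, so the groups share the oncogene and differ in background. Wsh is the usual name for mice with the W-sh allele of Kit, the stem cell factor receptor gene, which lack mast cells, and the series title names mast cells and breast cancer cells as its subject. No group separates the lack of mast cells from the rest of the Kit allele or from other DNA that differs between the backgrounds, and whether both share the same H2 alleles is not given in the sources used here. Whether some tumours shared a mouse is not given in the labels, so p-values measure only the spread between these samples.

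Class I molecules sit on nearly all nucleated cells and show peptides of proteins made inside the cell to CD8 T cells. Their heavy chains pair with beta-2 microglobulin (B2m) after peptides cut by the immunoproteasome (Psmb8, Psmb9) are pumped into the endoplasmic reticulum by Tap1 and Tap2 and loaded with the help of tapasin (Tapbp), and their transcription is driven by Nlrc5. Class II molecules are made mainly by dendritic cells, macrophages and B cells, carry the invariant chain Cd74 until H2-DM exchanges its fragment for a peptide, and depend on the transactivator Ciita; interferon gamma induces both classes.

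The windows of 200 bases before the transcription start of 4 class II and 2 class I genes are shown because both classes are known to be driven through short elements just upstream of the gene; they come from the RefSeq promoter table of build GRCm38.p6. They are printed 5′ to 3′ on the gene's own strand, and capitals mark matches on either strand to GCAAC (core of the X box, bound by the RFX factors), TGATTGG (the Y box, bound by NF-Y), GGGGATTCC (an NF-kB site) and TTTCACTTC (an interferon response element).
H2-Aa (chr17:34287824-34288023, minus strand): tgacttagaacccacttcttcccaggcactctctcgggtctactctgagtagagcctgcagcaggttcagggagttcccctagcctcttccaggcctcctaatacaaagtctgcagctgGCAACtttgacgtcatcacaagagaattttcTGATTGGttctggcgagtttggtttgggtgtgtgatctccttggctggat
H2-Eb1 (chr17:34305667-34305866, plus strand): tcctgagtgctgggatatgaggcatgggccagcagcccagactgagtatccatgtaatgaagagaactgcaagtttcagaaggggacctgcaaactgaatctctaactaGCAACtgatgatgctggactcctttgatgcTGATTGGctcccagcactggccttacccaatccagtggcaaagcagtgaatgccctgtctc
H2-DMb1 (chr17:34152991-34153190, plus strand): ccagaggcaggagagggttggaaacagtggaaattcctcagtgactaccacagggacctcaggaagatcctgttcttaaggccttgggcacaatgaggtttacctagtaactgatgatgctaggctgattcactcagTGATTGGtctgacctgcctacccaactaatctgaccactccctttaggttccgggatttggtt
H2-Ob (chr17:34238705-34238904, plus strand): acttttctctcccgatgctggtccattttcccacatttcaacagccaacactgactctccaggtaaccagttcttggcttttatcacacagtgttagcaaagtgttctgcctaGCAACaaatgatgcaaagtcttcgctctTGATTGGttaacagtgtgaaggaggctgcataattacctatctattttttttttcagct
H2-K1 (chr17:34000334-34000533, minus strand): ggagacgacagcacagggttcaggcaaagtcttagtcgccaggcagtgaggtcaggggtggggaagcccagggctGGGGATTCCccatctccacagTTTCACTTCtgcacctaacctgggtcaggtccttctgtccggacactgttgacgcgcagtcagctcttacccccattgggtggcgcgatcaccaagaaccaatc
H2-D1 (chr17:35262894-35263093, plus strand): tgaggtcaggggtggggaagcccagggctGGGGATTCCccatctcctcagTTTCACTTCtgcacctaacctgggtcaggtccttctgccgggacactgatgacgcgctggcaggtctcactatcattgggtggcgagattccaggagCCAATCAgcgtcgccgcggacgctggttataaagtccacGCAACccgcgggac
Of the 41 measured genes, 26 had a window from that table that was used here, 17 of class I and 8 of class II. The Y box letters were in 7 of the 8 class II and 7 of the 17 class I genes, against 6.57% of all 32851 windows. The X box core, 25.2% of all windows, was in 6 of 8 and 3 of 17. The NF-kB letters (0.155% of all windows) were in H2-K1, H2-D1 and H2-Q7, and the interferon element (0.307%) in 6 class I genes, H2-K1, H2-D1, H2-M3, H2-Q4, H2-Q7 and H2-Q10. Neither of the last pair was in a class II window. In H2-DMb1 the Y box letters are present without the X box core as spelled here. A match is a run of letters and was not tested as a binding site, and the windows of H2-Ab1, Cd74, Ciita, Nlrc5 and Tap2 were not used here. No 2 of the 4 motifs overlap in these 6 windows.

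Each tumour was hybridised to 1 single-colour array, and the 15 arrays lay on 2 slides, with 4 B6 and 4 Wsh arrays on slide 1 and 4 B6 and 3 Wsh arrays on slide 2. The signal at the 75th percentile of an array lay between 3328 and 6406, and between 55.7% and 73.4% of spots were well above background; the number of arrays limits the precision. Levels below are log2 of the processed signal minus the 75th percentile of the same array, a difference is the Wsh mean less the B6 mean, and SE is its standard error in limma, fitted over all genes, and the threshold was an adjusted p of 0.05. Kit itself ran from 2.03 to 3.84 (median 3.30) on the 8 B6 arrays and from -0.18 to 1.40 (median 0.65) on the 7 Wsh arrays, without overlap. All 13 markers of mammary epithelium were above background on every array. The lists of B and plasma cell, lymph node, adipocyte and skeletal muscle markers varied between arrays of both groups, and the values that touch a result are given with it. Because whole tumours were measured, fewer cells of a type and less RNA per cell cannot be told apart.

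No MHC gene differed between Wsh and B6 tumours past the threshold; class II genes lay above 0 and class I genes close to it. Of 41 measured genes, 0 passed, where 75 of 22342 genes (0.336%) passed in limma, and the lowest adjusted p was 0.278 (Ciita). At an unadjusted p under 0.05 there were 3, Ciita, H2-DMb1 and H2-Q1, against 10.4% of all genes, and 3 of 41 is 7.32%. The groups overlapped for all 41, where 0.358% of all genes showed no overlap. All 11 class II genes had a higher mean in Wsh, with a median difference of 0.36 and a range from 0.03 (H2-Eb2) to 0.83 (Ciita). Of 29 class I genes 9 did, with a median of -0.06 and a range from -0.76 (H2-Q1) to 0.52 (Nlrc5). Over all genes 48.2% were higher in Wsh and the median was -0.01; with the median of each array as the scale 29.98% were higher, the median of all genes was -0.11, and the class medians were 0.26 and -0.16, 10 of 11 and 7 of 29 being higher. The genes of a class vary together across arrays, so these counts are not 11 and 29 separate observations.

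Single tumours moved both medians, and that of class I across 0. Without Wsh replicate 5 the class I median was 0.09 with 23 of 29 genes higher in Wsh, and it was also above 0 on slide 1 alone (0.11) but not on slide 2 alone (-0.29). The class II median was 0.24 on slide 1 and 0.31 on slide 2. Without Wsh replicate 1, the array with the highest level of 10 of the 11 class II genes, it was 0.23 with 9 of 11 higher. It was 0.24 without B6 replicate 8, 0.28 without B6 replicate 3 and 0.54 without Wsh replicate 5. Skeletal muscle markers, which mark muscle tissue and not tumour cells, were high on 4 Wsh arrays (replicates 1, 3, 4 and 5) and 1 B6 array (replicate 4). With limma array weights the class II median was 0.17 with 8 of 11 higher and the class I median 0.06. Without the 5 arrays with muscle markers, a setting added after the data were seen, the class II median was 0.50 with 11 of 11 higher and the class I median 0.02 with 17 of 29.

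H2-Ab1, the classical class II beta chain, and H2-K1, a classical class I heavy chain, were compared within each array, which makes the comparison independent of the scale of the array. The sign of the value itself reflects 2 different probes, and only its difference between groups is read. Their log2 difference, H2-Ab1 less H2-K1, ran from -1.50 to -0.72 (median -1.20) on the 8 B6 arrays and from -1.05 to -0.33 (median -0.77) on the 7 Wsh arrays. All 7 Wsh arrays lay above the B6 median, and the groups overlapped. The mean was -0.77 ± 0.23 (SD, n = 7) in Wsh and -1.17 ± 0.24 (SD, n = 8) in B6. The difference of means was 0.39 (exact permutation test over group labels, two-sided, p = 0.00622). With group labels exchanged only within each slide, a test added later, the difference was 0.38 (exact p = 0.00449). Slide 1 alone gave 0.39 (exact p = 0.143) and slide 2 alone 0.38 (exact p = 0.0571, the smallest that 3 against 4 arrays allow). H2-Ab1 was picked when its higher mean in Wsh was already known, so this p is not independent evidence that it is higher. No other pair of genes was tested in this way.

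**Figure D1:**
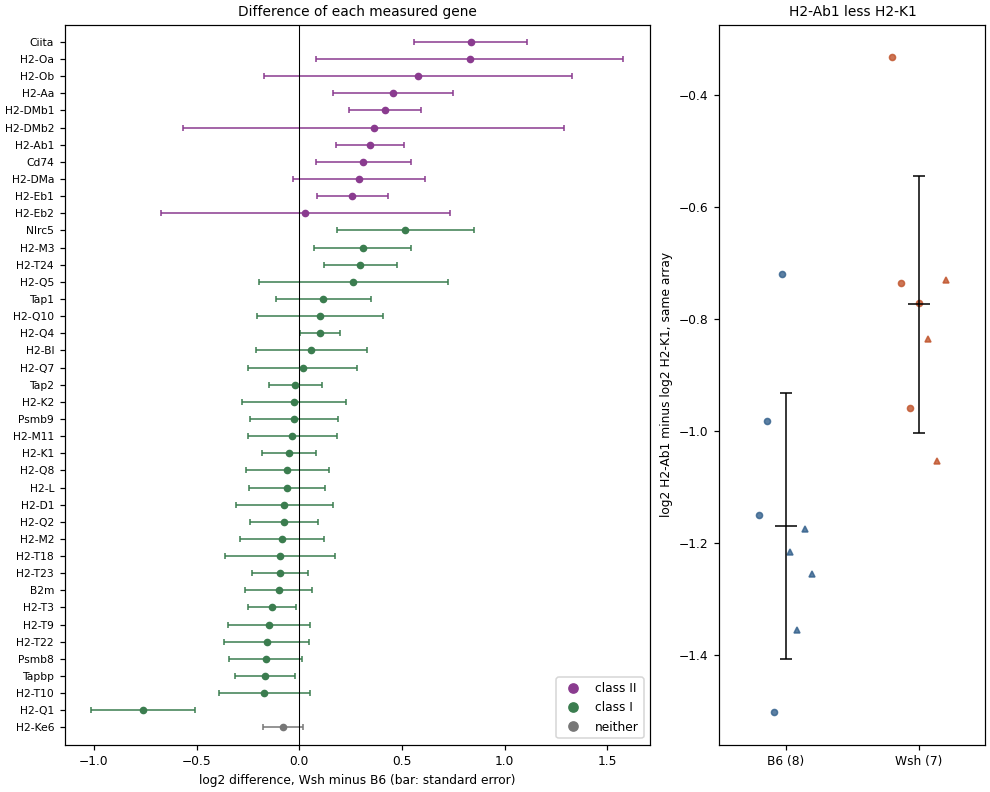
Left, Wsh minus B6 log2 difference (x axis; bars are the SE of the limma fit) of the 41 measured genes, class II above class I, and right, log2 H2-Ab1 minus log2 H2-K1 on each array by group, with circles for slide 1, triangles for slide 2 and bars for the mean ± SD. All 11 class II points lie right of 0 with SE bars that cross 0 for H2-DMa, H2-DMb2, H2-Ob and H2-Eb2, and 20 of 29 class I points lie left of 0; on the right the 7 Wsh arrays lie above the B6 median.

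Among classical class I heavy chains, H2-K1 ran from 5.87 to 6.76 (median 6.57) on the 8 B6 arrays and from 5.99 to 6.69 (median 6.54) on the 7 Wsh arrays. The groups covered nearly the same range, with a difference of -0.05 (SE 0.13, limma adjusted p = 0.941). H2-D1, the other heavy chain of this haplotype that presents peptides to CD8 T cells, ran from 4.70 to 6.01 (median 5.54) on the 8 B6 arrays and from 4.21 to 5.93 (median 5.46) on the 7 Wsh arrays, with a difference of -0.07 (SE 0.24, limma adjusted p = 0.953). Its lowest value in each group was a single array, Wsh replicate 5 at 4.21 and B6 replicate 8 at 4.70, while the other 13 arrays lay between 5.37 and 6.01. A probe named H2-L gave a difference of -0.06. The C57BL/6 haplotype carries no H2-L gene, and this probe lies at chr17:35403191-35403250 of build mm9, near the H2-D1 probe at chr17:35403886-35403945, and followed H2-D1 over the 15 arrays with r = 0.98, given as a description. What it measured cannot be told apart from H2-D1 and its relatives.

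B2m, the light chain shared by all class I molecules, ran from 5.13 to 6.28 (median 6.11) on the 8 B6 arrays and from 5.35 to 6.19 (median 5.99) on the 7 Wsh arrays. B6 replicate 8 was again the lowest array, and the difference was -0.10 (SE 0.16, limma adjusted p = 0.894). A second B2m probe, of much lower signal, gave 0.48, so the sign for B2m depended on the probe. Nlrc5, the class I transactivator, had the largest positive difference of class I, 0.52 (SE 0.33, limma adjusted p = 0.648). It ran from -0.18 to 1.77 (median 1.34) on the 8 B6 arrays and from 0.13 to 2.08 (median 2.04) on the 7 Wsh arrays, and 6 of 7 Wsh arrays were above the B6 median. A second, dim Nlrc5 probe, above background on 7 arrays, gave -0.45 and correlated at only 0.30 with the first.

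None of the genes that supply and load class I peptides passed the threshold. Tap1, a subunit of the peptide pump, ran from 1.38 to 2.57 (median 2.08) on the 8 B6 arrays and from 1.17 to 2.64 (median 2.14) on the 7 Wsh arrays with a difference of 0.12 (SE 0.23, limma adjusted p = 0.919). Its partner Tap2 ran from 3.28 to 3.94 (median 3.68) on the 8 B6 arrays and from 3.21 to 3.86 (median 3.73) on the 7 Wsh arrays with a difference of -0.02 (SE 0.13, limma adjusted p = 0.974). For both subunits the ranges of the groups almost coincided. Psmb9, an immunoproteasome subunit that shares its upstream region with Tap1, ran from 1.59 to 2.80 (median 2.51) on the 8 B6 arrays and from 1.49 to 2.90 (median 2.43) on the 7 Wsh arrays with a difference of -0.02 (SE 0.21, limma adjusted p = 0.983). Psmb8, another such subunit, ran from 2.44 to 3.11 (median 2.91) on the 8 B6 arrays and from 1.91 to 3.11 (median 2.61) on the 7 Wsh arrays with a difference of -0.16 (SE 0.18, limma adjusted p = 0.818). The lowest value of both was on Wsh replicate 5. Tapbp, which bridges the pump and empty class I molecules, ran from 3.81 to 4.64 (median 4.09) on the 8 B6 arrays and from 3.61 to 4.32 (median 3.91) on the 7 Wsh arrays with a difference of -0.17 (SE 0.15, limma adjusted p = 0.754). A second kept Tapbp probe, of lower signal but above background on all 15 arrays, gave -0.28 (SE 0.11 in a fit over probes).

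**Figure D2:**
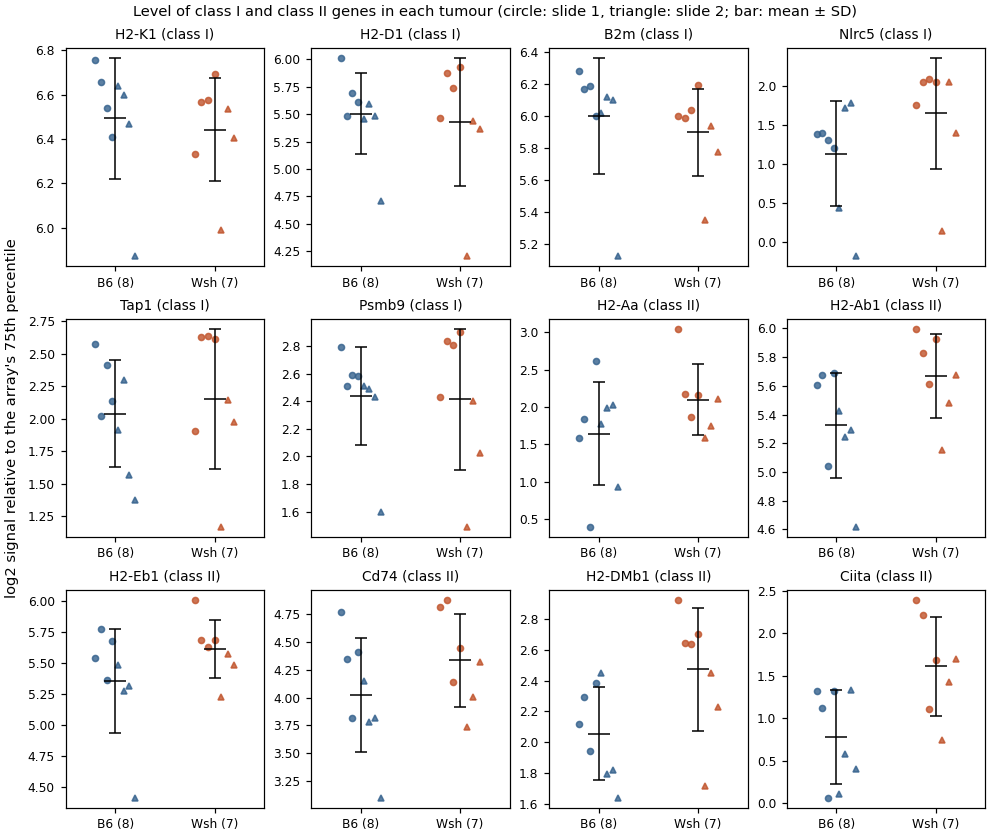
Level (y axis, log2 signal relative to the array's 75th percentile; each panel has its own range, and panels are not comparable in height because each is another probe) of 6 class I and 6 class II genes on each array by group, with the mean ± SD; circles are slide 1 and triangles slide 2. H2-K1, H2-D1, B2m and Psmb9 have 1 B6 and 1 Wsh array below the others, and in Ciita and H2-DMb1 all 8 B6 arrays lie below the Wsh median.

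Of 28 non-classical class I genes, 19 were measured, 7 higher and 12 lower in Wsh in the mean, and 0 passed. H2-Q1, a Q region gene, had the largest difference in size of all class I genes, -0.76 (SE 0.25, limma adjusted p = 0.279). It ran from -2.32 to -0.67 (median -1.39) on the 8 B6 arrays and from -2.60 to -1.47 (median -2.27) on the 7 Wsh arrays, and 0 of 7 Wsh arrays lay above the B6 median. It was below 0 under all 32 other settings, between -0.96 and -0.49, without passing in any. H2-T24, of the T region, ran from -3.21 to -2.31 (median -2.68) on the 8 B6 arrays and from -3.22 to -2.12 (median -2.30) on the 7 Wsh arrays with a difference of 0.30 (SE 0.18, limma adjusted p = 0.616). H2-M3, which presents formylated peptides of bacteria and mitochondria, ran from -1.23 to 0.33 (median -0.10) on the 8 B6 arrays and from -0.64 to 0.89 (median 0.23) on the 7 Wsh arrays with a difference of 0.31 (SE 0.23, limma adjusted p = 0.712). For both, 6 of 7 Wsh arrays were above the B6 median. H2-T3, the thymus leukaemia antigen, ran from -4.29 to -3.49 (median -3.99) on the 8 B6 arrays and from -4.23 to -3.80 (median -4.17) on the 7 Wsh arrays with a difference of -0.13 (SE 0.12, limma adjusted p = 0.764), and H2-Q4, which encodes the Qb1 molecule, from 4.97 to 5.65 (median 5.44) on the 8 B6 arrays and from 5.34 to 5.62 (median 5.46) on the 7 Wsh arrays with 0.10 (SE 0.10, limma adjusted p = 0.788). H2-Q4 was the least variable of all 41 genes, with an SD over the 15 arrays of 0.17.

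H2-Q5 was the most variable class I gene. It ran from -0.22 to 2.61 (median 1.51) on the 8 B6 arrays and from -0.49 to 2.90 (median 1.76) on the 7 Wsh arrays, an SD of 0.93 against a median of 0.30 over all genes, with a difference of 0.26 (SE 0.46, limma adjusted p = 0.905). Its 2 lowest arrays were Wsh replicate 5 and B6 replicate 8. H2-T23, which encodes the Qa-1 molecule read by NK cells, H2-T22, H2-T10 and H2-T9, which include ligands of gamma delta T cells, had differences of -0.09, -0.16, -0.17 and -0.15. H2-Q7, a gene of the Qa-2 molecules, and its neighbours H2-Q8 and H2-Q2 had 0.02, -0.06 and -0.07. H2-K2, H2-M2, H2-M11, H2-T18 and H2-Bl lay between -0.09 and 0.06. H2-Ke6, of neither class, ran from 2.50 to 3.02 (median 2.86) on the 8 B6 arrays and from 2.41 to 2.99 (median 2.74) on the 7 Wsh arrays with a difference of -0.08 (SE 0.10, limma adjusted p = 0.846). Many of these genes are near-identical copies, so a probe can read more than 1 of them.

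The classical class II chains had higher means in Wsh tumours without passing. H2-Ab1, the A beta chain, ran from 4.62 to 5.69 (median 5.36) on the 8 B6 arrays and from 5.15 to 6.00 (median 5.68) on the 7 Wsh arrays. B6 replicate 8 was the lowest array and Wsh replicate 1 the highest, and 6 of 7 Wsh arrays were above the B6 median. The difference was 0.34 (SE 0.17, limma adjusted p = 0.498), and the other 3 kept probes of H2-Ab1 gave 0.37, 0.52 and 0.53. H2-Aa, the A alpha chain that pairs with it, ran from 0.40 to 2.62 (median 1.80) on the 8 B6 arrays and from 1.59 to 3.04 (median 2.10) on the 7 Wsh arrays with a difference of 0.46 (SE 0.29, limma adjusted p = 0.642). B6 replicate 3 was the lowest array for H2-Aa. H2-Eb1, the E beta chain, whose alpha partner is the gene defective in C57BL/6, ran from 4.41 to 5.77 (median 5.42) on the 8 B6 arrays and from 5.23 to 6.01 (median 5.63) on the 7 Wsh arrays with a difference of 0.26 (SE 0.17, limma adjusted p = 0.661). Cd74, the invariant chain, ran from 3.099 to 4.77 (median 3.98) on the 8 B6 arrays and from 3.74 to 4.88 (median 4.32) on the 7 Wsh arrays with a difference of 0.31 (SE 0.23, limma adjusted p = 0.705).

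Ciita, the class II transactivator, had the largest difference of the 41 genes, a 1.78-fold higher mean in Wsh. It ran from 0.07 to 1.33 (median 0.85) on the 8 B6 arrays and from 0.75 to 2.40 (median 1.69) on the 7 Wsh arrays. All 8 B6 arrays were below the Wsh median and 6 of 7 Wsh arrays above the B6 median, but the ranges overlapped. The difference of 0.83 (SE 0.28, limma adjusted p = 0.278) did not pass over all genes, and its other 2 kept probes gave 1.08 and 0.73. Under the 32 other settings the difference stayed between 0.64 and 1.08 with a limma adjusted p between 0.105 and 0.771. H2-DMb1, a chain of the peptide exchange factor H2-DM, ran from 1.64 to 2.45 (median 2.03) on the 8 B6 arrays and from 1.71 to 2.93 (median 2.64) on the 7 Wsh arrays with a difference of 0.42 (SE 0.18, limma adjusted p = 0.419). As for Ciita, all 8 B6 arrays lay below the Wsh median.

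The other peptide exchange genes varied far more between tumours than between backgrounds. H2-Ob, a chain of H2-O, the B cell inhibitor of H2-DM, ran from -4.32 to -0.79 (median -2.53) on the 8 B6 arrays and from -3.77 to 0.36 (median -1.61) on the 7 Wsh arrays, and H2-Oa, its partner, from -5.73 to -1.31 (median -2.94) on the 8 B6 arrays and from -3.90 to -0.19 (median -1.92) on the 7 Wsh arrays. The differences were 0.58 (SE 0.75, limma adjusted p = 0.855) and 0.83 (SE 0.75, limma adjusted p = 0.769). H2-DMb2, a second H2-DM beta chain gene, was above background on only 8 arrays and ran from -7.66 to -3.34 (median -4.64) on the 8 B6 arrays and from -7.29 to -1.86 (median -4.96) on the 7 Wsh arrays with a difference of 0.36 (SE 0.93, limma adjusted p = 0.940). H2-Eb2, a second E beta gene, above background on 12 arrays, ran from -5.23 to -1.96 (median -3.11) on the 8 B6 arrays and from -5.35 to -1.26 (median -3.03) on the 7 Wsh arrays with a difference of 0.03 (SE 0.70, limma adjusted p = 0.995). The SDs of H2-DMb2, H2-Oa, H2-Ob and H2-Eb2 over the 15 arrays were 1.87, 1.57, 1.54 and 1.42, all above those of 97.6% of genes. H2-DMa, the H2-DM alpha chain, varied less and ran from -1.87 to 0.44 (median -0.43) on the 8 B6 arrays and from -1.04 to 0.79 (median -0.52) on the 7 Wsh arrays with a difference of 0.29 (SE 0.32, limma adjusted p = 0.825).

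H2-Ob and H2-Oa tracked the B cell genes of the tumour. The mean of 13 measured B and plasma cell markers, each centred over the arrays, split the tumours into 8 arrays (4 of each background) at 0.82 to 2.98 and 7 arrays (4 B6, 3 Wsh) at -2.43 to -1.18. H2-Ob was at -1.85 to 0.36 on the former and -4.32 to -3.22 on the latter, with no value between. H2-Oa and H2-DMb2 also left no overlap between these arrays, and H2-Eb2 overlapped through B6 replicate 3, at -2.25. H2-DMb2 was above background on only 8 of the 15 arrays, and its values of -7.66 to -5.38 on the 7 arrays lie near the floor. The share of all genes without overlap on this split was not counted. Since the arrays fall into separate clusters, no pooled correlation is given. Within the 8 arrays H2-Ob and the list mean had r = 0.99 and rho = 0.98 (permutation p = 4.96e-05 for r), and within the 7 r = 0.81 and rho = 0.89 (permutation p = 0.0137).

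The B cell genes Cd79a, Ms4a1 and Pax5 were above background on 4, 5 and 4 of the 8 B6 arrays and 3, 4 and 4 of the 7 Wsh arrays. The 7 measured lymph node markers had a list mean between -2.92 and 2.12 in B6, and between -1.96 and 3.32 in Wsh, with the same array, Wsh replicate 1, highest in both lists. Lymph node tissue and B cells within the tumour cannot be told apart in these data. H2-Ab1 was at 5.29 to 6.00 on the 8 arrays and 4.62 to 5.92 on the 7, and H2-K1 at 6.33 to 6.76 and 5.87 to 6.69, so both overlapped. With the B cell list mean as a covariate the class II median was 0.24 and 9 of 11 genes were higher in Wsh, and Ciita had 0.72 (limma adjusted p = 0.105).

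**Figure D3:**
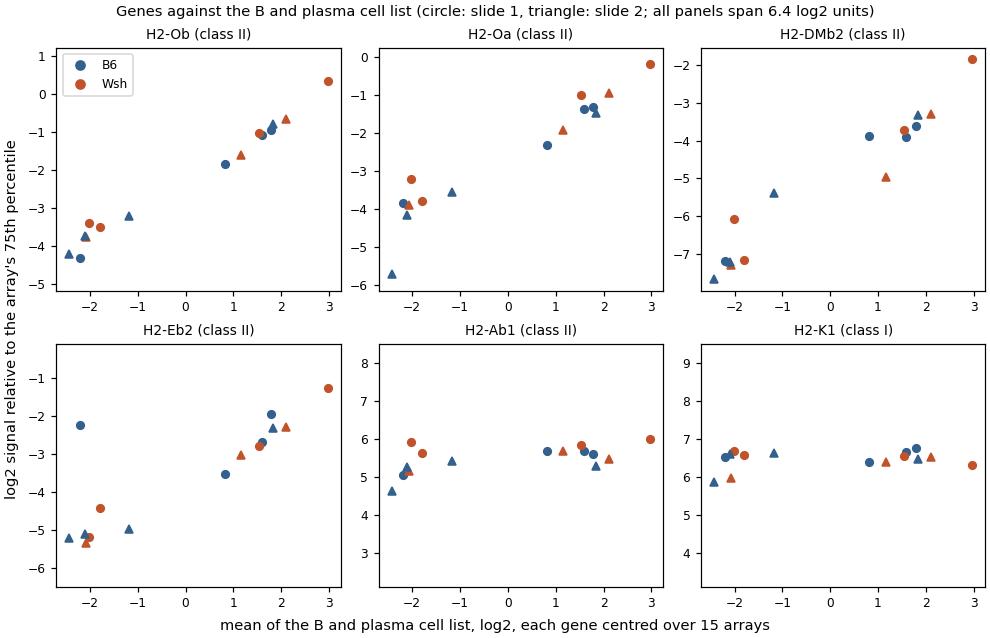
Level of 6 genes (y axis, log2 signal relative to the array's 75th percentile; every panel spans the same number of log2 units) against the mean of 13 B and plasma cell markers (x axis, log2, centred) on the 15 arrays, coloured by group. H2-Ob, H2-Oa and H2-DMb2 climb with the list from the 7 arrays on the left to the 8 on the right, H2-Eb2 does so except on B6 replicate 3, and H2-Ab1 and H2-K1 span far less of the axis and overlap between the sides.

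Class I genes moved together from tumour to tumour, and so did class II genes, while the classes moved together less. Over the 15 arrays the median Pearson r between genes was 0.77 for 406 class I pairs, 0.71 for 55 class II pairs and 0.34 for 319 pairs of a class I with a class II gene. These describe genes that share arrays, and no test is attached. They include Wsh replicate 5 and B6 replicate 8, both low in most class I genes, and were not computed without them. Class I probes can also read near-identical relatives of their gene. Among the 26 pairs listed for testing, H2-Ab1 and H2-Eb1 had Pearson r = 0.92 (permutation p = 1e-05, adjusted 0.000130) and Spearman rho = 0.90 (permutation p = 2.00e-05, adjusted 0.000173), with r = 0.85 on slide 1 and 0.95 on slide 2 and 0.91 without the 2 arrays farthest from the median of H2-Ab1. A permutation p of 1e-05 is the smallest that 100000 resamples give, and the adjustment was over the 26 pairs. Ciita and H2-Ab1 had Pearson r = 0.79 (permutation p = 0.000320, adjusted 0.000910) and Spearman rho = 0.82 (permutation p = 0.000260, adjusted 0.00135), with r = 0.93 on slide 1 and 0.57 on slide 2 and 0.84 without the 2 extreme arrays of Ciita. H2-Ab1 and H2-DMa had r = 0.80, H2-Ab1 and H2-Aa 0.78 and Ciita and Cd74 0.73, and these were 0.76, 0.76 and 0.83 without the 2 extreme arrays. These class II relations therefore held without the extreme arrays.

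In class I, Tap1 and Psmb9, which lie head to head, had Pearson r = 0.89 (permutation p = 7.00e-05, adjusted 0.000303) and Spearman rho = 0.85 (permutation p = 0.000110, adjusted 0.000715), with r = 0.95 on slide 1 and 0.79 on slide 2 and 0.75 without the 2 extreme arrays. H2-K1 and B2m had Pearson r = 0.94 (permutation p = 3.00e-05, adjusted 0.000156) and Spearman rho = 0.82 (permutation p = 0.000370, adjusted 0.00156), with r = 0.79 on slide 1 and 0.97 on slide 2 and 0.69 without them. Nlrc5 and H2-K1 had Pearson r = 0.69 (permutation p = 0.00819, adjusted 0.0118) and Spearman rho = 0.36 (permutation p = 0.192, adjusted 0.226). That relation rested on 2 arrays, Wsh replicate 5 and B6 replicate 8. Without them r was -0.06, on slide 1, which holds neither, 0.10, and on slide 2, which holds both, 0.73. Nlrc5 and B2m behaved alike (0.73, and -0.02 without the 2 arrays). Across the classes, H2-Ab1 and H2-K1 had r = 0.57 with rho = 0.21 (adjusted permutation p = 0.0317 and 0.463), and r was -0.12 without Wsh replicate 5 and B6 replicate 8.

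Those 2 tumours, 1 of each background, stood apart by low class I transcripts. Wsh replicate 5 and B6 replicate 8 were both below all other 13 arrays for 22 of 29 class I genes and for 5 of 11 class II genes. The share of all genes with this order was not counted, so the counts do not show that it is particular to MHC genes. The 75th percentile subtracted from each level was 6406 on B6 replicate 8, the highest of the 15 arrays, and 3550 on Wsh replicate 5. The class I list mean, each gene centred over the arrays, was -0.91 and -0.64 on them. H2-K1 was 5.99 and 5.87 against 6.33 to 6.76 on the others, and H2-Q5 -0.49 and -0.22 against 1.13 to 2.90. H2-Q4 did not follow, being 5.62 on Wsh replicate 5, the second highest of its 15 values. The other class I genes without both arrays at the bottom were H2-Q1, H2-T3, H2-T10, H2-T24, Psmb8 and Tapbp. The interferon gamma response list (21 genes) had a mean of -0.78 and -0.79 and the type I interferon list (18 genes) -0.85 and -0.99 on these arrays, the lowest of each group. Ptprc, the pan-leukocyte gene, was not low there, at 0.36 and 0.13 from its mean. Lymphocyte lists were low there too. The T cell list mean was -1.09 and -1.38, the B and plasma cell list mean -2.08 and -2.43, and the NK and cytotoxic cell list mean -0.25 and -1.33. These were also the lowest of each group. The macrophage list mean was -0.25 and -0.70, the former the lowest of its group and the latter not. Whether interferon has a part in the low class I levels was not tested.

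**Figure D4:**
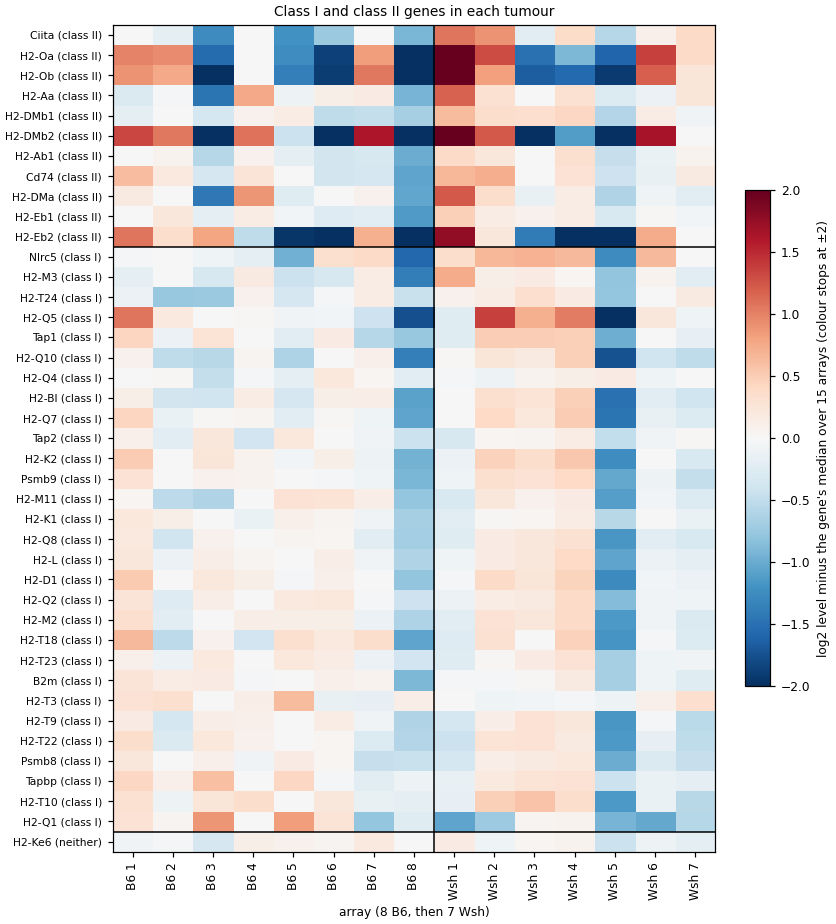
Level of the 41 genes (rows, class II above class I above H2-Ke6) on the 15 arrays (columns, B6 then Wsh) as the log2 level minus the gene's median, red above and blue below, with colour stopping at ±2. Columns B6 8 and Wsh 5 are blue through most of the class I rows but not H2-Q4, and the rows of H2-Oa, H2-Ob, H2-DMb2 and H2-Eb2 switch between red and blue in both groups.

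H2-K1 and the interferon gamma response list mean had r = 0.72 (adjusted permutation p = 0.00806), which was 0.00 without the same 2 arrays. H2-K1 and the type I interferon list mean had Pearson r = 0.79 (permutation p = 0.000350, adjusted 0.000910) and Spearman rho = 0.69 (permutation p = 0.00580, adjusted 0.0108), with r = 0.50 on slide 1 and 0.91 on slide 2. Without the 2 arrays that r was 0.53, which did not pass (adjusted permutation p = 0.102). H2-Ab1 and the interferon gamma list mean had Pearson r = 0.83 (permutation p = 0.000140, adjusted 0.000520) and Spearman rho = 0.80 (permutation p = 0.000590, adjusted 0.00170), with r = 0.77 on slide 1 and 0.74 on slide 2, and kept r = 0.72 without the 2 extreme arrays of H2-Ab1. H2-Ab1 had r = 0.76 with the macrophage list mean and 0.77 with the dendritic cell list mean (adjusted permutation p = 0.00193 and 0.00148), and 0.57 and 0.60 without those arrays. With Ptprc alone it had 0.01 (adjusted permutation p = 0.959).

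Genes that act with the class II molecules but are no part of the complex also did not pass. The class II pathway list had 11 of 14 measured genes above 0 (median 0.04), with 0 passing in limma where 14.3% had an unadjusted p under 0.05. Lgmn, a lysosomal protease that trims the invariant chain, had 0.32 (SE 0.10, limma adjusted p = 0.270), and Creb1, a factor of the class II promoter, 0.35 (SE 0.14, limma adjusted p = 0.411). The class I pathway list had 5 of 9 measured genes above 0 (median 0.04), 0 passing, among them the chaperone Canx at 0.18 (SE 0.13, limma adjusted p = 0.705) and the proteasome subunit Psmb10 at -0.14 (SE 0.11, limma adjusted p = 0.732). The class I-like genes outside the complex had 1 of 6 measured genes above 0 (median -0.28), with Mr1, which presents vitamin metabolites, at -0.32 (SE 0.11, limma adjusted p = 0.310) and Azgp1 at -0.67 (SE 0.32, limma adjusted p = 0.495).

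Interferon genes had the same sign in part. The interferon gamma list had 16 of 21 measured genes above 0 (median 0.12), 0 passing, and the type I interferon list 12 of 18 measured genes above 0 (median 0.02), 0 passing. Ifng, the cytokine that induces Ciita and Nlrc5, was dim and above background on 4 of 8 B6 and 5 of 7 Wsh arrays. It ran from -6.76 to -3.77 (median -4.98) on the 8 B6 arrays and from -5.50 to -2.86 (median -4.08) on the 7 Wsh arrays, with a difference of 0.96 (SE 0.43, limma adjusted p = 0.459). Its receptor kinase Jak2 had -0.21 (SE 0.09, limma adjusted p = 0.413), and in the type I list Oas2 and Ifih1 had 0.61 and -0.25.

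Most marker lists of leukocytes, and those of lymph node, fat and muscle, had higher means in Wsh, the same direction as the class II genes. The macrophage list had 14 of 15 measured genes above 0 (median 0.36), the dendritic cell list 9 of 10 measured genes above 0 (median 0.46), and the B and plasma cell list 12 of 13 measured genes above 0 (median 0.40). The T cell list had 11 of 12 measured genes above 0 (median 0.62), the lymph node list 7 of 7 measured genes above 0 (median 0.79), the adipocyte list 8 of 9 measured genes above 0 (median 0.87) and the skeletal muscle list 8 of 8 measured genes above 0 (median 3.28), and 0 genes of these 7 lists passed in limma. The macrophage list mean, all 15 genes above background on all arrays, lay in B6 between -0.90 and 0.72 and in Wsh from -0.25 to 0.78. The dendritic cell list mean ran from -1.22 to 0.56 and from -0.64 to 1.25. Cd14, the monocyte receptor of lipopolysaccharide, had 0.53 (SE 0.14, limma adjusted p = 0.164) and Flt3, the dendritic cell growth factor receptor, 0.68 (SE 0.48, limma adjusted p = 0.681). The NK and cytotoxic cell list had 8 of 9 measured genes above 0 (median 0.44), and 1, the granzyme gene Gzmk, passed at 1.42 (SE 0.27, limma adjusted p = 0.0396). Gzmk was dim, with means of -5.54 in B6 and -4.12 in Wsh. It was above background on 2 of 8 B6 and 7 of 7 Wsh arrays, so it met the filter mainly through Wsh and its size is uncertain. Ptprc ran from 2.43 to 3.49 (median 3.14) on the 8 B6 arrays and from 3.14 to 3.57 (median 3.27) on the 7 Wsh arrays with 0.20 (SE 0.14, limma adjusted p = 0.697). With Ptprc as a covariate the class II median was 0.41 and that of class I 0.04. Ptprc did not follow the lymphocyte lists on every array. On Wsh replicate 5 it was at 0.36 from its mean, its highest value, where the T cell list mean was -1.09. On Wsh replicate 1 it was at 0.01, where the T cell list mean was 1.59. This covariate therefore does not stand in for leukocyte content. The part of macrophage, dendritic cell or other tissue content in the class II differences was not tested.

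H2-Q10, known as a class I molecule secreted by the liver, gave patterns that differed between its probes, a comparison chosen after the values were seen. The probe of highest mean, at chr17:35607907-35607966, and the probe at chr17:35610036-35610095 had SDs of 0.61 and 0.39 over the 15 arrays. The first ran from 0.54 to 2.02 (median 1.65) on the 8 B6 arrays and from 0.16 to 2.39 (median 1.93) on the 7 Wsh arrays with a difference of 0.10 (SE 0.31, limma adjusted p = 0.950) and followed H2-D1 with r = 0.91, as a description. The 2 probes at higher coordinates, at chr17:35611365-35611424 and chr17:35611449-35611508, had SDs of 1.64 and 2.27. The probe at chr17:35611449-35611508 ran from -3.52 to 3.45 (median -1.12) in B6 and from -2.31 to 3.61 (median 2.05) in Wsh. Both groups thus covered nearly the whole range. Against the mean of 9 adipocyte markers it had r = 0.94 and rho = 0.96, each at the smallest permutation p of 1e-05 (adjusted over 6 probes, 6.00e-05 and 3.00e-05), r = 0.95 and 0.98 within the slides, and r = 0.92 without its 2 extreme arrays. The probe at chr17:35611365-35611424 had r = 0.83, the probe of highest mean 0.52 and the remaining probe 0.41. Annotation of exons in build mm9 was not used here, so which transcripts each probe reads is not known. Fat content of the tumour piece and a transcript made in fat cannot be told apart.

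**Figure D5:**
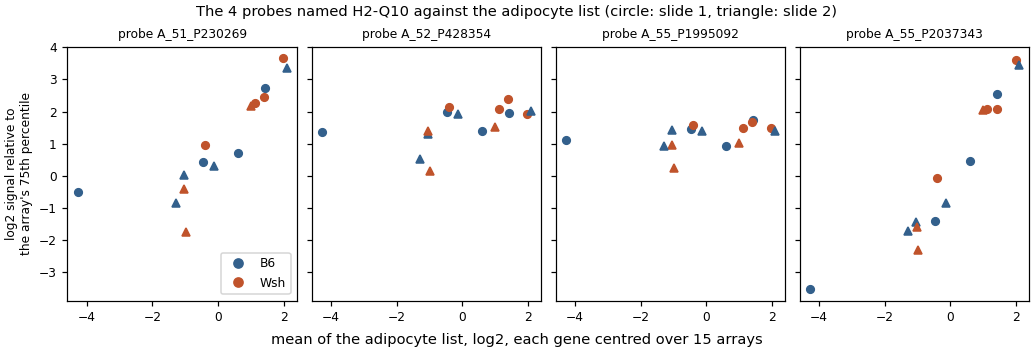
Level of each of the 4 probes named H2-Q10 (y axis, log2 signal relative to the array's 75th percentile) against the mean of 9 adipocyte markers (x axis, log2, centred) on the 15 arrays, coloured by group. The first and last panels climb with the adipocyte list in both groups, and the 2 in the middle stay between 0.16 and 2.39.

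Look-alike letters limit what some probes can tell apart. Each of the 86 probes of 60 bases was compared with all other probes of another gene name, and 6 probes of 6 genes, 3 of them chosen to represent their gene, had a partner with at least 40 identical bases at 80% identity or more. A dim H2-Bl probe shared 49 of 58 aligned bases with the H2-Q10 probe at chr17:35611365-35611424, and the H2-L probe shared 48 of 54 with an H2-T23 probe. The stretches of 30 bases below were chosen to hold as many differences as possible, with differing bases in capitals.
H2-Bl probe: AatgtgaacttGattgCtcaAatcTttgaG
H2-Q10 probe: GatgtgaacttTattgTtcaTatcCttgaT
H2-L probe: GCcatcAttggagctgtggtggcttttgtg
H2-T23 probe: ATcatcCttggagctgtggtggcttttgtg
The H2-Bl and H2-Q10 stretches differ at 6 of 30 bases and the H2-L and H2-T23 stretches at 3. The dim H2-Bl probe had r = 0.67 with the adipocyte list mean, and the probe that represents H2-Bl 0.49 (permutation p = 0.00582 and 0.0649, adjusted over 6 probes 0.0116 and 0.0779). Cross-hybridisation between them was not tested. H2-M2 is a further gene whose probes disagreed, its second probe giving 0.78 and correlating at 0.02 with the first.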

How the data were processed

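Total RNA of 15 mammary tumours was labelled with Cy3 and hybridised to Agilent single-colour arrays of 60-base probes. The deposited scanner files hold intensity per spot; per the file headers they were made with Agilent Feature Extraction 10.7.3.1, which subtracts the background within each array, and no step between arrays was applied. The authors' deposited value table is on a log2 scale; its normalization is not given in the sources used here, and it served as an alternative.

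Control spots and outlier spots were left out, and log2 of the processed signal minus the 75th percentile of the same array was used. A probe was kept if 7 or more of the 15 arrays had it well above background, and each gene took its values from the brightest kept probe on average. No fold was set between probes of different genes. Groups were compared in limma 3.58.1 (R 4.3.3) over all 22342 genes with Benjamini-Hochberg adjustment at 0.05. Single values were compared by exact permutation, and correlations by 100000 resamples (SciPy 1.17.1), adjusted over 26 pairs. The fits were tested on simulated data. No member spot was saturated. Alternatives were normexp background correction (offset 50), quantile or median scaling, the deposited log2 values, other filters, the mean of probes, each slide, the replicate block, array weights, Ptprc or B cell markers as a covariate, and leaving out arrays.

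The members, gene lists and tests were chosen with earlier results of these data known, so patterns already seen, the class II direction among them, are not independent support. Values by group were given for 19 set members (the classical chains, the exchange, supply and loading genes, Cd74, Ciita and Nlrc5), for the 6 other H2- genes of largest absolute moderated t and for the 4 of largest SD. Of each outside list Ifng, Ptprc and up to 2 genes of largest absolute moderated t were named, besides the defining markers. Probe coordinates are those of build mm9 in the files, and promoter coordinates those of RefSeq for GRCm38.p6. Tumours that fall apart by measured markers were described and not compared as groups.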

Additional observations from a re-analysis of the deposited data

Results flagged for a closer look

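Of 82 groups of arrays (41 genes in each background), 19 held an array set apart from the others of its group by Dixon's 95% criterion, where chance alone gives about 4.1, and genes that vary together stand out together. B6 replicate 8 was the lowest B6 array in 10 of them, with log2 levels of B2m at 5.13, H2-D1 at 4.70, H2-K1 at 5.87, H2-K2 at 4.05, H2-L at 4.70, H2-Q7 at 3.76, H2-Bl at 0.67, H2-M3 at -1.23, Psmb9 at 1.59 and H2-Eb1 at 4.41. Wsh replicate 5 was the lowest Wsh array in 8, with H2-D1 at 4.21, H2-L at 4.25, H2-Q2 at 4.50, H2-Q7 at 3.36, H2-Q8 at 3.46, H2-M11 at -1.28, H2-T24 at -3.22 and Nlrc5 at 0.13. The class II gene H2-Aa was highest on Wsh replicate 1, at 3.04, the next Wsh array being at 2.17. Of the 19, 17 were class I genes, H2-Eb1 and H2-Aa being the exceptions. What sets these tumours apart was not tested.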

How the results depend on the processing

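No member passed an adjusted p of 0.05 under any of the 32 other settings of the limma fit, the lowest being 0.105 (Ciita, B cell covariate). Of the 41 genes, 27 changed sign under at least 1 setting, and 7 class II and 7 class I genes kept theirs under each setting that measured them (32, or 31 for H2-Oa, which was not above background on all 15 arrays). Leaving out 1 array at a time gave a class I median from -0.14 to 0.09 and a class II median from 0.23 to 0.54. The number of all genes past the threshold, 75, was 25 with no filter, 4 on slide 1, 1 on slide 2, 187 with array weights, 31 with Ptprc as a covariate, 40 without Wsh replicate 5 and B6 replicate 8, 24 without the 5 arrays with muscle markers, and from 25 (without B6 replicate 5) to 76 (without B6 replicate 7) with 1 array left out. Of the outside list genes, 4 passed, Gzmk and 3 of the 8 measured mast cell markers, the latter lower in Wsh. The number was 6 with array weights and 6 with the B cell covariate. It was 1 with all 15 arrays above background, 1 on slide 1, 0 on slide 2, 1 without the 5 arrays, and 3 to 4 with 1 array left out. Of the 26 correlations, 24 passed by Pearson's r, against 13 on slide 1, 5 on slide 2, 13 in B6 alone, 14 in Wsh alone, 13 without Wsh replicate 5 and B6 replicate 8, 11 without the 2 extreme arrays of each pair, and 15 (without B6 replicate 8) to 24 with 1 array left out. Slides, groups and left-out settings hold fewer arrays.

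H2-Ab1 less H2-K1 was 0.39 on slide 1 and 0.38 on slide 2, where it did not pass, and from 0.32 to 0.46 (exact permutation p from 0.00117 to 0.0133) with 1 array left out. It was 0.39 with normexp, 0.39 with quantile scaling, 0.41 in the authors' deposited values and 0.49 with the mean of probes. Samples of the same replicate number did not deviate together (7 pairs, correlations from -0.24 to 0.21, 1 over 0.1). No pairing by number was seen, and a check of this kind cannot exclude one. With the replicate block 15 genes passed and the difference was 0.38 (exact permutation p = 0.0312).

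H2-DMb2, H2-Eb2, H2-T18 and H2-Oa were not above background on every array, which limits them, and a probe can read close relatives of its gene.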
